A study of Mus musculus with 23 samples.

Results

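The hippocampus of Cdr1as knockout mice was compared with that of wild type mice by miRNA sequencing, across all miRNAs measured. The comparison rests on 5 of the 23 libraries of the series, chosen by the region in their titles. They are 2 libraries of dissected hippocampus labelled Cdr1as knockout, which carry the replicate numbers 2 and 3, and 3 labelled wild type, with the numbers 1, 2 and 3. Knockout and wild type are both C57BL/6, and no further allele or treatment is labelled. The age, the sex, the number of animals behind a library and the way the locus was deleted are not known from the labels. The p-values below therefore set differences against the spread between libraries, which need not equal that between animals. The other 18 libraries, from cerebellum, cortex and olfactory bulb of both genotypes, entered the model only to estimate the spread and for 1 comparison of the knockout effect between regions. Levels are normalised counts per 1000000 reads (CPM), on library sizes scaled by trimmed means of M values (TMM). Each difference is a log2 fold change, knockout over wild type, with its standard error (SE), and it was called at a Benjamini-Hochberg adjusted p under 0.05 in edgeR's quasi-likelihood test.

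Cdr1as is a neuronal circular RNA made from a locus on the X chromosome. It carries many sites for miR-7 and a site that pairs almost fully with miR-671, which can direct its slicing. A miRNA is cut from a hairpin as a duplex, and the guide arm stays in Argonaute while the passenger arm is usually lost, so the 5p and 3p arms of a hairpin can differ widely in level. The choroid plexus is the secretory epithelium inside the ventricles, and the lateral ventricle borders the hippocampus. Its cells express the serotonin receptor gene Htr2c, whose introns hold a group of miRNAs, and Trpm3, which hosts miR-204. The miRNAs miR-34b, miR-34c and miR-449 are known from ciliated epithelia, which include choroid plexus and ependyma.

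The mature sequences of the miRNAs that the comparison turns on are shown 5′ to 3′, from RefSeq (GRCm38.p6), with the seed (bases 2 to 8), which finds target sites, in capitals. Of the 1915 miRNA names in the count tables, 1623 matched a mature sequence there. The first set is the miR-7 guides, their passengers and the arms of miR-671.
miR-7a-5p: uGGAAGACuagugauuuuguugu
miR-7b-5p: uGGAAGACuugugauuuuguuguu
miR-7a-1-3p: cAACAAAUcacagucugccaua
miR-7a-2-3p: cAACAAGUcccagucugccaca
miR-7b-3p: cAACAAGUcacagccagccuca
miR-671-5p: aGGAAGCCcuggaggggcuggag
miR-671-3p: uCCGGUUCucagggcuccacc
Both miR-7 guides have the seed GGAAGAC, and no other tested miRNA with a sequence shared it. Over the length of miR-7a-5p they differ by the single substitution A10U, counted from the 5′ end of miR-7a-5p, so reads of the pair could be exchanged in counting. MiR-7a-5p is made from hairpins at chr13:58392841-58392863, minus strand, in an intron of Hnrnpk, and at chr7:78888295-78888317, plus strand, in no gene of GENCODE M21. MiR-7b-5p lies at chr17:56243017-56243040, plus strand, outside genes on its strand, and miR-671-5p at chr5:24592132-24592154, plus strand, in an exon of Chpf2. These coordinates are of GRCm38.p6, while the reads were mapped to mm9.

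The second set is from the choroid plexus and ciliated epithelium list. It holds miRNAs that differed widely between the wild type hippocampus libraries. For comparison it also holds miR-449a-5p, miR-448-5p and miR-1298-3p, which share a seed or a hairpin with them and varied less.
miR-204-5p: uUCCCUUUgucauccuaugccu
miR-211-5p: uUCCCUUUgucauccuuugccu
miR-34b-5p: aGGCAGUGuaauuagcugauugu
miR-449a-5p: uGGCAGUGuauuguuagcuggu
miR-1298-5p: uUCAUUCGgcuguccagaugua
miR-1298-3p: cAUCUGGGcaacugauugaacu
miR-448-3p: uUGCAUAUguaggaugucccau
miR-448-5p: gAACAUCCugcauagugcugcc
miR-1912-3p: cACAGAACaugcagugagaacu
miR-1264-3p: cAAAUCUUauuugagcaccugu
MiR-204-5p, from an intron of Trpm3 at chr19:22750610-22750631, plus strand, and miR-211-5p, from an intron of Trpm1 at chr7:64205831-64205852, plus strand, share the seed UCCCUUU. MiR-34b-5p and miR-449a-5p share GGCAGUG with miR-34a-5p and miR-449c-5p. MiR-34c-5p was not among the names with a matched sequence, so its seed was not compared. MiR-1912-3p (chrX:147009493-147009514, plus strand), miR-1264-3p (chrX:147010655-147010676, plus strand), miR-1298-5p (chrX:147064918-147064939, plus strand) and miR-448-3p (chrX:147158281-147158302, plus strand) lie in introns of Htr2c and have 4 different seeds.

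The 5 libraries held 7217821 to 12690054 counted reads, with 994 to 1094 miRNAs seen. The 10 most abundant miRNAs took 55.6% to 58.2% of the reads. They were led by the neuronal miR-181a-5p (129058 and 141611 CPM in knockout and 123104, 123233 and 132754 CPM in wild type) and by miR-9-5p, a miRNA of neural progenitors and neurons (88301 and 84457 CPM in knockout and 81669, 86686 and 65941 CPM in wild type). The others were miR-26a-5p, miR-22-3p, miR-434-3p, let-7f-5p, miR-138-5p, miR-143-3p, miR-128-3p and miR-127-3p. The spine-regulating miR-138-5p had 20045 and 20998 CPM in knockout and 24409, 20245 and 18319.9 CPM in wild type. Set against their label as hippocampus, the libraries held 32.2% to 33.5% of reads in a list of neuron-enriched miRNAs and 0.0216% to 0.0429% in the miR-200 family and miR-183 cluster, which mark the olfactory bulb. None of the lists here sets hippocampus apart from neighbouring cortex. Cdr1as itself is not counted in a miRNA library, so its loss could not be checked in these samples.

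The comparison asks which miRNAs differ in the hippocampus when Cdr1as is lost. The miR-7 guide arms had lower levels in knockout, and in the edgeR fit over all 23 libraries their adjusted p lay just outside the threshold. In a fit of the 5 hippocampus libraries alone it was 0.204 for miR-7a-5p and 0.303 for miR-7b-5p (edgeR), well outside it. MiR-7a-5p, a miRNA of neurons and endocrine cells, was at 71.1 and 41.2 CPM in the knockout libraries, against 130.1, 167 and 121 CPM in the wild type libraries. Every knockout library was below every wild type library, and the highest level belonged to wild type replicate 2. On average it was at 56.2 ± 21.2 CPM in knockout and 139 ± 24.5 CPM in wild type (SD, n = 2 and 3), a log2 fold change of -1.31 (SE 0.27, 95% interval -1.88 to -0.74; adjusted p = 0.0509 by edgeR). These levels rest on 1184 and 508 reads in knockout and 1226, 2088 and 1476 reads in wild type, so counting error is small beside the spread between libraries.

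MiR-7b-5p, the guide of the third miR-7 hairpin, was at 15.7 and 9.09 CPM in the knockout libraries, against 25.6, 37.6 and 26.3 CPM in the wild type libraries. As for miR-7a-5p, the groups did not overlap, knockout replicate 3 was the lowest library and wild type replicate 2 the highest. The means were 12.4 ± 4.66 CPM in knockout and 29.8 ± 6.76 CPM in wild type (SD, n = 2 and 3), and the log2 fold change was -1.26 (SE 0.27, 95% interval -1.82 to -0.70; adjusted p = 0.0509 by edgeR). Between the knockout libraries both guides differed by 0.79 and 0.78 on the log2 scale, against a median of 0.28 over all tested miRNAs. Without knockout replicate 2 both guides were called (log2 fold changes of -1.75 and -1.71; edgeR adjusted p = 0.0194 for each). Without knockout replicate 3 the log2 fold changes were -0.995 and -0.95, and neither was called.

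**Figure D1:**
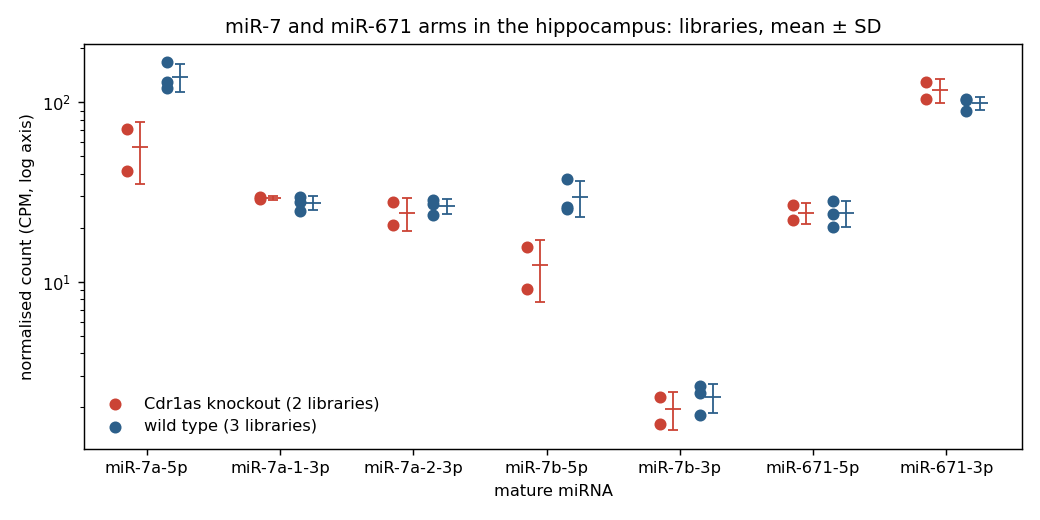
Normalised counts (CPM, log axis) of the miR-7 and miR-671 arms in the 2 knockout (red) and 3 wild type (blue) hippocampus libraries; points are libraries and bars are the mean ± SD. The knockout points of miR-7a-5p (41.2 and 71.1) and miR-7b-5p (9.09 and 15.7) lie below all wild type points, and those of the miR-7 passenger arms overlap them.

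The passenger arms of the same hairpins overlapped between knockout and wild type. MiR-7a-1-3p, from the Hnrnpk hairpin, was at 29.9 and 28.8 CPM in the knockout libraries, against 24.9, 29.9 and 27.9 CPM in the wild type libraries, with a log2 fold change of 0.089 (95% interval -0.24 to 0.42). MiR-7a-2-3p was at 27.7 and 20.7 CPM in the knockout libraries, against 23.7, 28.4 and 27.3 CPM in the wild type libraries (-0.13, 95% interval -0.66 to 0.41). Neither interval reaches the estimate for miR-7a-5p. MiR-7b-3p was at 2.28 and 1.62 CPM in the knockout libraries, against 1.8, 2.4 and 2.62 CPM in the wild type libraries (-0.22, 95% interval -0.97 to 0.54), a low level at which the interval is wide.

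The ratio of 5p to 3p reads within a library is free of library scaling. For miR-7a, with both passenger arms summed, the log2 ratio was 0.31 and -0.26 in the knockout libraries, against 1.42, 1.52 and 1.13 in the wild type libraries. Guide and passengers therefore had about equal read counts in knockout, while the guide had more reads in wild type. The difference of -1.34, 2.52-fold, gave a two-sided exact permutation p of 0.1 (adjusted over 3 ratios, 0.150), and 0.1 is the smallest p that the 10 arrangements of 2 and 3 libraries allow. For miR-7b the log2 ratio was 2.76 and 2.46 in knockout, against 3.79, 3.95 and 3.31 in wild type. Its difference was -1.07, with the same exact permutation p of 0.1. Over the 198 hairpins with both arms tested by name, the median difference was 0.0096, and the knockout and wild type ratios did not overlap in 16.2% (8.59% lower and 7.58% higher in knockout). The ratio of 7 of these hairpins differed by 1 or more on the log2 scale in either direction, miR-7b, miR-27a, miR-141, miR-448, miR-466b, miR-466e and miR-1298, named after their values were seen. In some of them the 5p arm had few reads beside the 3p arm. Over the libraries the log2 ratio was -14.1 to -12.2 for miR-27a and -8.42 to -5.91 for miR-466e. MiR-466b-3p and miR-466e-3p also have counts equal to those of other names in every library.

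MiR-671-5p, the arm that pairs with Cdr1as, did not differ detectably. It was measured at 26.7 and 22 CPM in the knockout libraries, against 28.2, 23.8 and 20.3 CPM in the wild type libraries, a log2 fold change of 0.017 (SE 0.16, 95% interval -0.31 to 0.35; adjusted p = 0.997 by edgeR). The other arm, miR-671-3p, had 105 and 130.4 CPM in the knockout libraries, against 104, 103 and 89.2 CPM in the wild type libraries, and its knockout libraries lay above all wild type libraries (0.25, 95% interval -0.16 to 0.66; edgeR adjusted p = 0.997). More reads were counted for miR-671-3p than for miR-671-5p in all 5 libraries. The log2 ratio of miR-671-5p to miR-671-3p was -1.97 and -2.57 in knockout and -1.88, -2.12 and -2.13 in wild type. Its difference of -0.22 had an exact permutation p of 0.4, and without knockout replicate 3 it was 0.074. Of the 7 arms of miR-7 and miR-671, 2 had both knockout libraries below all wild type ones and 1 had both above. Over all tested miRNAs the groups did not overlap in 16.9%, with 8.82% lower and 8.07% higher.

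Over all miRNAs, 0 of 669 were called in the hippocampus (0% by edgeR), and 39 (5.83%) had an unadjusted p under 0.05, 25 of them lower and 14 higher (3.74% and 2.09%). The median log2 fold change was 0. DESeq2 called 3 miRNAs, all lower, namely miR-7a-5p (adjusted p = 0.00372), miR-7b-5p (0.00920) and miR-1298-5p (0.0378). Limma-voom called 2, miR-7a-5p and miR-7b-5p (adjusted p = 0.0171 and 0.0174). Which miRNAs passed also turned on single libraries. Without wild type replicate 2 edgeR called 8 miRNAs, all lower and all of the choroid plexus and ciliated epithelium list, and neither miR-7 guide. Without knockout replicate 2 it called 3, the miR-7 guides and miR-1247-5p (-2.09; edgeR adjusted p = 0.0194 and named after its value was seen). That miRNA was at 14.3 and 2.68 CPM in the knockout libraries, against 10.4, 13.4 and 10.7 CPM in the wild type libraries, low in knockout replicate 3 only, and its log2 fold change over all libraries was -0.42.

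**Figure D2:**
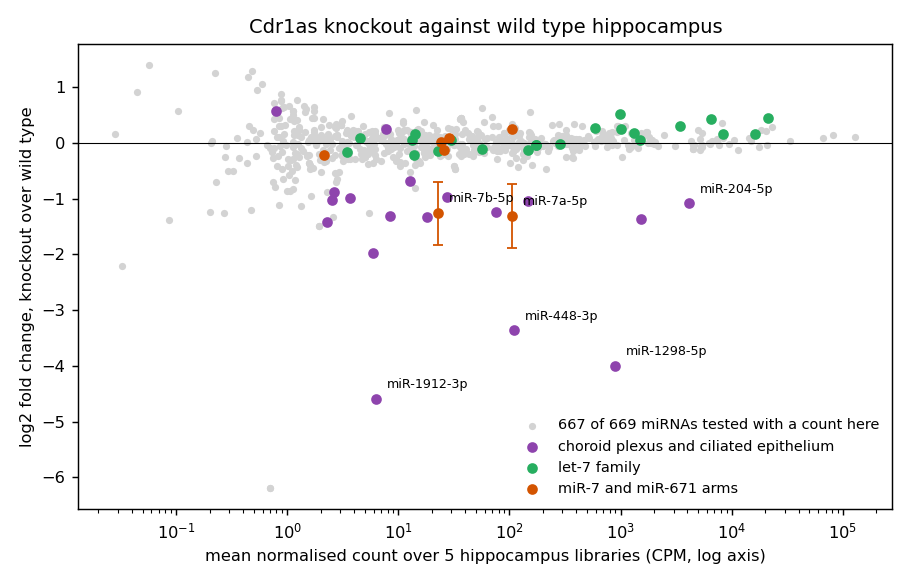
Log2 fold change of knockout over wild type hippocampus against the mean level over the 5 libraries (CPM, log axis) for the tested miRNAs with a count there; bars on the miR-7 guides are 95% intervals. The lowest grey point is miR-466m-5p and miR-669m-5p, counted equally, with 0 and 0 counts in knockout and 10, 20 and 10 in wild type, where the fitted value depends on the prior count. The miR-7 guides lie at -1.31 and -1.26, 16 of the 18 choroid plexus and ciliated epithelium miRNAs lie below 0, and the let-7 family lies between -0.21 and 0.52.

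Most miRNAs of choroid plexus and ciliated epithelium had lower mean levels in knockout, but 1 of the 3 wild type libraries lay near the knockout libraries. None of the differences passed the test. Of the 23 names on the list, 18 were tested. The other 5 were miR-211-3p, miR-449a-3p, miR-449b and miR-449c-3p, each with 0 counts in all 5 libraries, and miR-1912-5p, with 1 and 0 counts in knockout and 5, 3 and 12 in wild type. None of the 18 was called, 16 had a negative log2 fold change and 12 of these an unadjusted p under 0.05, which 3.74% of all tested miRNAs had with a lower level. The median over the list was -1.17, against 0 over all 669. Knockout was below all wild type libraries for 6 of the 18 and above all of them for 1, against 8.82% and 8.07% of all tested miRNAs. In tissue, fewer choroid plexus cells and less miRNA per cell cannot be told apart. The part that the amount of choroid plexus in a library plays in the other differences was not tested.

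The Trpm-hosted miR-204-5p was the most abundant miRNA of the list. MiR-204-5p, which acts in epithelia of the eye and choroid plexus, was at 2428 and 2554 CPM in the knockout libraries, against 6244, 2225 and 7391 CPM in the wild type libraries. Wild type replicate 2 lay below both knockout libraries, and wild type replicates 1 and 3 stood 2.81-fold and 3.32-fold above it. The log2 fold change was -1.09 (SE 0.32, adjusted p = 0.367 by edgeR). Without wild type replicate 1 it was -0.95 (edgeR adjusted p = 0.580), and without replicate 3 it was -0.76 and not called. Without replicate 2 it was -1.45 (edgeR adjusted p = 0.00119). That library was the lowest for this miRNA, so leaving it out gives no independent support. The passenger of miR-204-5p, miR-204-3p, was at 1.8 and 1.3 CPM in the knockout libraries, against 3.08, 2 and 4.5 CPM in the wild type libraries. Its relative miR-211-5p, of the same seed, was at 10.8 and 8.03 CPM in the knockout libraries, against 18.7, 7.68 and 19.1 CPM in the wild type libraries. In both the order of the wild type libraries was that of miR-204-5p.

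Among the ciliated-cell miRNAs the members of the miR-34b and miR-34c hairpins had the same order. MiR-34c-5p, which promotes the building of motile cilia together with miR-449, was at 686 and 870.1 CPM in the knockout libraries, against 2185, 671.5 and 3175 CPM in the wild type libraries. Wild type replicate 2 was the lowest of the 5 libraries, and replicate 3 was 4.73-fold above it. The log2 fold change of miR-34c-5p was -1.37 (SE 0.47; edgeR adjusted p = 0.454). MiR-34b-5p was at 45.4 and 37.9 CPM in the knockout libraries, against 110.1, 36.9 and 149 CPM in the wild type libraries, and miR-34b-3p and miR-34c-3p, at lower levels, had log2 fold changes of -1.33 and -1.31. The miR-449 members did not share this order. MiR-449a-5p, from an intron of Cdc20b, was at 7.45 and 9.65 CPM in the knockout libraries, against 7, 7.76 and 6.71 CPM in the wild type libraries, and miR-449c-5p was at 1.02 and 0.973 CPM in the knockout libraries, against 0.425, 0.960 and 0.573 CPM in the wild type libraries, where wild type replicate 2 was the highest of its group. The seed shared with miR-34b-5p thus held members with a wide and members with a narrow spread between the wild type libraries: over the 3 wild type libraries the SD of log2 CPM was 1.06 for miR-34b-5p and 0.11 for miR-449a-5p.

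Of the Htr2c introns, miR-1298-5p, miR-448-3p and miR-1912-3p differed more between the wild type libraries than the other members of the list. MiR-1298-5p was at 102 and 76.9 CPM in the knockout libraries, against 1816, 112 and 2385 CPM in the wild type libraries. The knockout libraries and wild type replicate 2 lay within 76.9 to 112 CPM, while wild type replicates 1 and 3 were 16.2-fold and 21.2-fold above wild type replicate 2. The log2 fold change of -4.002 (SE 1.18; adjusted p = 0.367 by edgeR) follows the levels of wild type replicates 1 and 3. MiR-448-3p was at 18.3 and 14.7 CPM in the knockout libraries, against 240.2, 17.8 and 254 CPM in the wild type libraries, with a log2 fold change of -3.37 (SE 1.11; edgeR adjusted p = 0.454). MiR-1912-3p had 10 and 2 reads in knockout and 120, 6 and 214 reads in wild type, that is 0.601 and 0.162 CPM in knockout and 12.7, 0.480 and 17.5 CPM in wild type (-4.59, SE 1.23; edgeR adjusted p = 0.298). The same libraries were high for each of them. MiR-1264-3p was at 2.4 and 1.78 CPM in the knockout libraries, against 10.2, 2.8 and 12.3 CPM in the wild type libraries (-1.98), and its partner arm miR-1264-5p had a log2 fold change of -1.42. MiR-764-3p was at 19.2 and 15.6 CPM in the knockout libraries, against 36.1, 25.5 and 41.4 CPM in the wild type libraries, and miR-764-5p had -0.98 on the log2 scale.

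**Figure D3:**
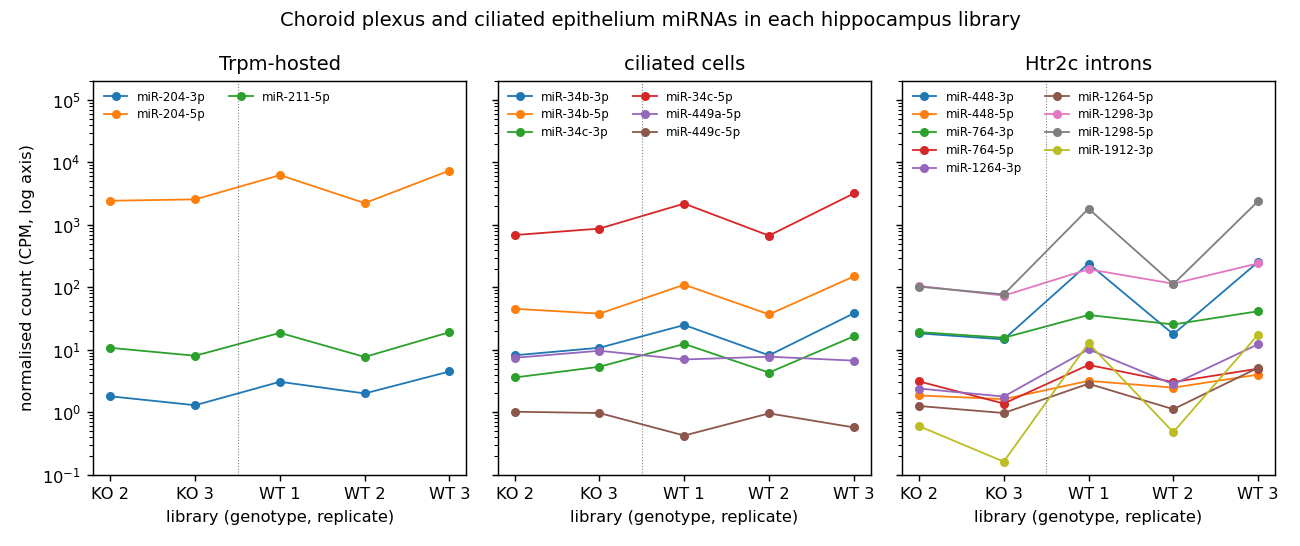
Normalised counts (CPM, log axis) of the 18 tested choroid plexus and ciliated epithelium miRNAs in each hippocampus library, with the knockout libraries left of the dotted line; each line is 1 miRNA, in panels by host gene or cell type. In 16 of the 18 wild type replicate 2 and both knockout libraries lie below wild type replicates 1 and 3, as for miR-1298-5p at 102 and 76.9 CPM in knockout and 1816, 112 and 2385 CPM in wild type, and miR-449a-5p and miR-449c-5p are the exceptions.

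The summed level of the list shows the split between the wild type libraries. It was 3447 and 3684 CPM in knockout, against 10928, 3244 and 13768 CPM in wild type. Wild type replicate 2 was thus below both knockout libraries, and replicate 3 held 4.24-fold as much as replicate 2. The sum of the Htr2c introns differed in this: it was 255 and 187 CPM in knockout, against 2322, 280 and 2967 CPM in wild type. There wild type replicate 2 lay above both knockout libraries. Knockout was below all wild type libraries in 5 of these 9 members, 1 of the 3 Trpm-hosted and 0 of the 6 ciliated-cell members, against 8.82% of all tested miRNAs. The largest over the smallest wild type sum was 10.6-fold for the Htr2c introns, 4.64-fold for the ciliated-cell miRNAs and 3.32-fold for the Trpm-hosted miRNAs. In 16 of the 18 members, wild type replicate 2 and both knockout libraries all lay below wild type replicates 1 and 3, an order seen in 65 of 669 tested miRNAs (9.72%).

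The spread between wild type libraries was wide in these miRNAs. Over the 18 members the median SD of log2 CPM in the 3 wild type libraries was 0.97, against 0.19 over all tested miRNAs; without wild type replicate 2 the list's value was 0.25. Between the knockout libraries the median absolute difference was 0.38 for the list and 0.28 for all. Among the 393 miRNAs with a mean of at least 10 CPM in wild type, 8 of the 10 with the largest SD were on the list. Their values included 2.77 for miR-1912-3p, 2.44 for miR-1298-5p and 2.19 for miR-448-3p. MiR-1912-3p passed the mean of 10 CPM only through wild type replicates 1 and 3, at 12.7 and 17.5 CPM, against 0.480 CPM in replicate 2. The other 2 of the 10 were miR-409-5p, of the imprinted Dlk1-Dio3 cluster, and miR-144-3p, of red blood cells. MiR-409-5p was at 54.6 and 32.2 CPM in knockout and 54.4, 45.7 and 11.2 CPM in wild type, with wild type replicate 3 low. MiR-144-3p was at 17.8 and 16.2 CPM in knockout and 7.43, 23.5 and 13.7 CPM in wild type, with wild type replicate 1 low.

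Wild type replicate 2 was at least 2-fold below both other wild type libraries in 9 of these 393 miRNAs (2.29%), and 9 of the 9 were members of the list: miR-204-5p, miR-211-5p, both arms of miR-34b and of miR-34c, miR-448-3p, miR-1298-5p and miR-1912-3p. It was at least 2-fold above both others in 0. Replicate 3 was 2-fold below both others in 2, miR-409-5p and miR-501-3p, and replicate 1 in 0. The list was known from earlier results on these libraries, so these counts describe them and are no independent support.

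**Figure D4:**
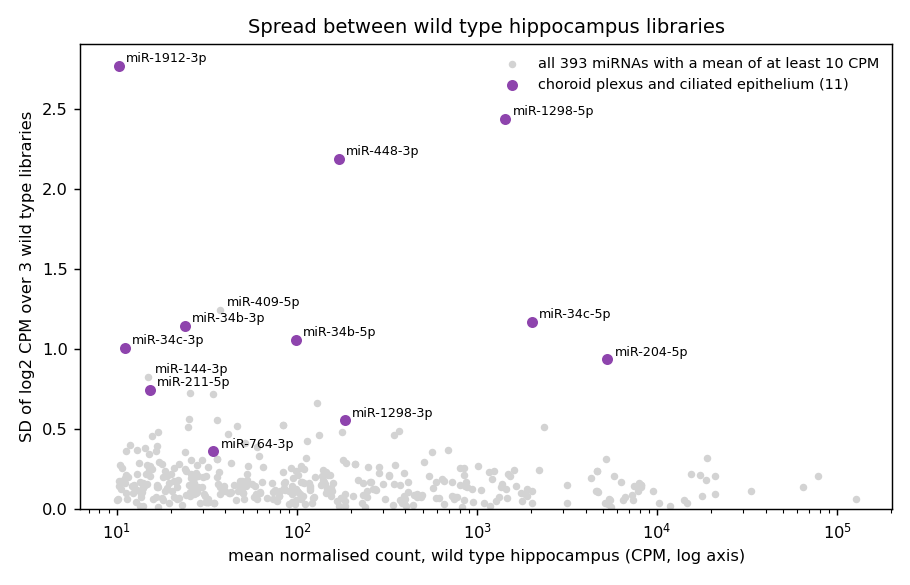
SD of log2 CPM over the 3 wild type hippocampus libraries against mean level (CPM, log axis) for the 393 miRNAs with a mean of at least 10 CPM; purple points are the 11 choroid plexus and ciliated epithelium miRNAs. They reach 2.77, while the median of all points is 0.15.

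In wild type libraries of the other regions the list had a median SD of 1.03 in cerebellum, 0.30 in cortex and 0.33 in olfactory bulb, so the value in cerebellum was close to that in hippocampus. MiR-1298-5p ranged from 27.7 to 1706 CPM in wild type cerebellum and from 151 to 309 CPM in wild type cortex.

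The arms of 2 Htr2c hairpins varied to different degrees. MiR-1298-3p was at 105 and 73.6 CPM in the knockout libraries, against 195, 114 and 242 CPM in the wild type libraries, a far narrower range than that of miR-1298-5p. The log2 ratio of miR-1298-5p to miR-1298-3p was -0.042 and 0.064 in knockout, against 3.22, -0.025 and 3.30 in wild type. The arms had about equal read counts in the knockout libraries and in wild type replicate 2, and the 5p arm led in reads in wild type replicates 1 and 3. For miR-448 the log2 ratio of 5p to 3p was -3.28 and -3.15 in knockout, against -6.21, -2.82 and -5.97 in wild type. There it was the 3p arm that led more strongly in wild type replicates 1 and 3, while miR-448-5p stayed between 1.62 and 4.01 CPM in all libraries. The range of the ratio over the wild type libraries was 3.33 for miR-1298 and 3.39 for miR-448, against a median of 0.51 over 198 hairpins. It was 0.41 for miR-764, 0.57 for miR-1264, 0.21 for miR-34b, 0.32 for miR-34c and 0.87 for miR-204.

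**Figure D5:**
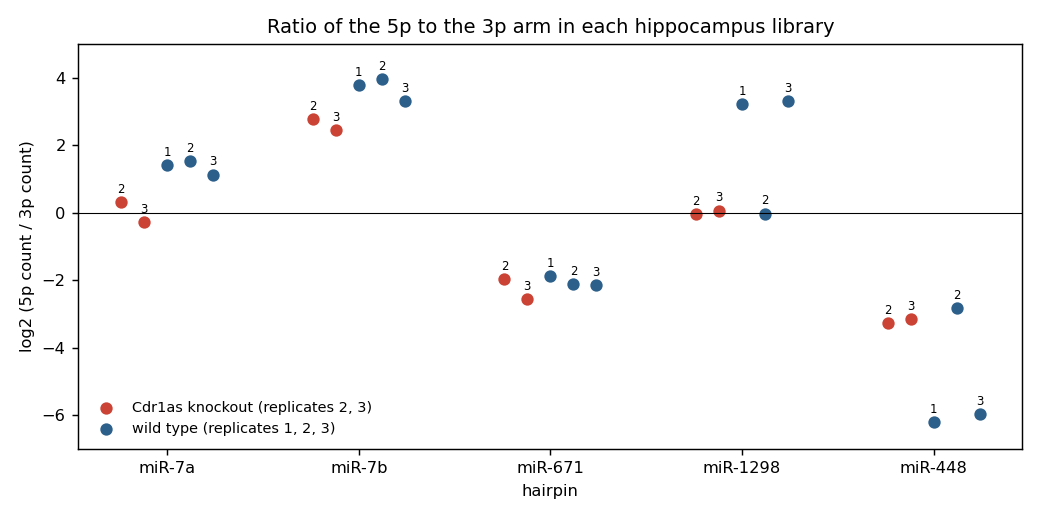
Log2 ratio of 5p to 3p counts in each hippocampus library for 5 hairpins (for miR-7a, both 3p arms are summed); red points are knockout, blue points wild type, and the digit is the replicate number. For miR-7a the knockout points (-0.26 and 0.31) lie below all wild type points, while for miR-1298 and miR-448 wild type replicate 2 lies with the knockout libraries.

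The miR-7 guides and the choroid plexus miRNAs had different orders among the wild type libraries. Wild type replicate 2, with the lowest summed choroid plexus level of the 5 libraries, had the highest miR-7a-5p and miR-7b-5p.

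Of the 10 lower miRNAs with the smallest p, 6 were of the choroid plexus list and 2 were the miR-7 guides. The remaining 2 were miR-574-3p, from an intron of Fam114a1, at 9.79 and 10.1 CPM in the knockout libraries, against 15.3, 12 and 16 CPM in the wild type libraries (-0.53, SE 0.17; edgeR adjusted p = 0.454), and miR-669d-5p, of the rodent Sfmbt2 repeat family, at 1.68 and 1.3 CPM in the knockout libraries, against 3.4, 2.08 and 2.95 CPM in the wild type libraries (-0.88; edgeR adjusted p = 0.454). Knockout lay below all wild type libraries in both.

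Of the 10 higher miRNAs with the smallest p, none passed, and the edgeR adjusted p was 0.679 to 0.715. The let-7 family, growth-restraining miRNAs of differentiated cells, gave 3 of them. Among these, let-7j and let-7i-5p differ by a single base over the length of let-7i-5p, within the seed. Reads of the pair could thus be exchanged in counting. Let-7f-5p was at 20768 and 30076 CPM in the knockout libraries, against 20100.1, 20092 and 16109 CPM in the wild type libraries (0.44, SE 0.17), let-7i-5p at 6073 and 9340.4 CPM in the knockout libraries, against 6295, 6069 and 4824 CPM in the wild type libraries (0.43) and let-7j at 898 and 1527 CPM in the knockout libraries, against 960.3, 889.9 and 682 CPM in the wild type libraries (0.52). In all 3 knockout replicate 3 was the highest library, and knockout replicate 2 lay within or close to the wild type range. Of the 22 tested let-7 arms, 14 had a positive log2 fold change and 8 a negative one, with 6 above and 0 below all wild type libraries, against 8.07% and 8.82% of all tested miRNAs. The list's median was 0.075, and with library size only as the scaling it turned to -0.0056, with 11 arms in each direction.

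The abundant imprinted miR-434-3p was at 26869.9 and 24218 CPM in the knockout libraries, against 21543, 21971 and 19517 CPM in the wild type libraries, above all wild type libraries in both knockout libraries (0.28, SE 0.12). Over its cluster the values lay on both sides of 0: the 89 tested arms of the Dlk1-Dio3 cluster, an imprinted neuronal miRNA cluster, had a median of -0.028, with 7 above and 7 below all wild type libraries, near the shares over all tested miRNAs of 8.07% and 8.82%. MiR-127-3p, also from that cluster, had -0.083, and miR-665-3p, the one with the next smallest p, -0.36. MiR-181b-5p, which shares its seed with miR-181a-5p, was at 7895 and 11107 CPM in the knockout libraries, against 8159.9, 7358 and 6665 CPM in the wild type libraries (0.36). The phosphodiesterase-hosted miR-582-3p was at 507 and 517 CPM in the knockout libraries, against 439, 444 and 359 CPM in the wild type libraries (0.31). MiR-1839-5p (0.34), miR-30c-2-3p (0.37), miR-1843b-3p (0.62) and miR-802-5p (1.19, at under 1 CPM in all 5 libraries) made up the 10.

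Markers of neurons and of other cell types had 0 members called in each of the lists that follow. The activity-regulated neuronal miRNAs (9 tested) had 0 with an unadjusted p under 0.05. Among them miR-132-3p, induced by synaptic activity, was at 1542 and 1742 CPM in the knockout libraries, against 1753, 1491 and 1319.9 CPM in the wild type libraries (0.11), and miR-138-1-3p had 0.37, with 23.9 and 64.7 CPM in knockout. The neuron-enriched list (17 tested) had 1, miR-124-5p, the passenger arm of the main neuronal miRNA, at 105 and 97.8 CPM in the knockout libraries, against 116, 127 and 123 CPM in the wild type libraries (-0.26, SE 0.12; edgeR adjusted p = 0.715). MiR-128-3p of that list had 0.23, miR-9-5p 0.15 and miR-181a-5p 0.099.

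Glial and blood markers had no member called. The oligodendrocyte list (5 tested) ran from -0.11 to 0.18, with miR-338-3p, which promotes myelination, at 997 and 1259 CPM in the knockout libraries, against 1356, 1051 and 1239.7 CPM in the wild type libraries, miR-219a-2-3p at 0.076 and miR-219a-5p at 0.18. The microglia and leukocyte list (9 tested) ran from -0.66 for miR-150-3p to 0.30 for miR-146a-5p. In that list the lymphocyte miRNA miR-150-5p was at 769 and 793 CPM in the knockout libraries, against 819, 655 and 693 CPM in the wild type libraries, and miR-146b-5p had 0.12. The red blood cell list (7 tested) summed to 10216 and 7346 CPM in knockout and 8482, 11350.0 and 8602 CPM in wild type. Its main members, miR-486a-5p and miR-486b-5p, hold equal counts in every library and so share reads (-0.11 each). The sum may therefore count the same reads under both names. MiR-451a had -0.17 and miR-144-5p 0.18.

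Vessel and meningeal markers were likewise without a call. The endothelial and mural list (6 tested) summed to 31179 and 23521 CPM in knockout and 21100.3, 28809 and 23685 CPM in wild type, most of it the smooth muscle miRNA miR-143-3p (0.21), with miR-143-5p at 0.23 and the endothelial miR-126a-5p at -0.041. The meningeal fibroblast list (5 tested) summed to 448 and 399.7 CPM in knockout and 392.4, 376 and 539 CPM in wild type. Its members miR-199a-3p and miR-199b-3p, counted equally in every library, had -0.026 each, miR-199a-5p -0.40 and miR-199b-5p -0.40. Here too the sum may count the same reads under both names. The olfactory bulb list (15 tested) had 0 with an unadjusted p under 0.05, with miR-182-5p at 165 and 103 CPM in the knockout libraries, against 248, 132 and 152 CPM in the wild type libraries, miR-183-5p at -0.81, miR-141-3p at -1.33 and miR-429-3p at -0.026.

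The miRNA neighbours of the Cdr1as locus on the X chromosome were listed as well. Within 10 Mb of Cdr1 in GRCm38, 70 names of the tables have a precursor, and 14 of them were tested. None was called, 0 had an unadjusted p under 0.05, and the log2 fold changes ran from -0.47 to 0.55, with a median of -0.089. Knockout was below all wild type libraries for 4 of the 14 and above all of them for 1, against 8.82% and 8.07% of all tested miRNAs. MiR-92a-3p, which also has a precursor elsewhere in the genome, was at 1576 and 2107 CPM in the knockout libraries, against 1911, 1517 and 1370.2 CPM in the wild type libraries, and miR-351-5p at 134 and 124 CPM in the knockout libraries, against 145, 117 and 153 CPM in the wild type libraries. The 2 with the smallest p were miR-450b-5p (-0.38) and miR-505-5p (0.55), both at under 7 CPM.

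The knockout effect in the hippocampus was then set against its mean in cerebellum, cortex and olfactory bulb. By the test of this difference, 0 of 669 miRNAs were called by edgeR (0%), 31 (4.63%) had an unadjusted p under 0.05, and DESeq2 and limma-voom called 0 each. For miR-7a-5p the effect was -1.31 in hippocampus and -0.99 in the other regions, a difference of -0.32 (95% interval -0.95 to 0.31), and for miR-7b-5p it was -1.26 and -1.20. MiR-671-5p had 0.017 in hippocampus and 0.61 in the other regions, a difference of -0.59 (SE 0.18; edgeR adjusted p = 0.537), among the 5 with the smallest p. The others of the 5 were miR-200b-3p (1.64), miR-429-3p (1.80), miR-551b-5p (2.82) and miR-200a-5p (2.04), at the same adjusted p. All of these but miR-551b-5p are of the olfactory bulb list, whose 15 tested members together had only 176 to 329 CPM in the hippocampus libraries. With 1 library left out, the effect in hippocampus ran from -0.31 to -0.045 for miR-200b-3p and -0.45 to 0.29 for miR-429-3p. For miR-551b-5p it ran from 0.38 to 1.09, and for miR-200a-5p from -0.050 to 0.62. All lie below these differences, so negative values in the other regions enter them. For miR-1298-5p the difference was -3.81 (SE 1.25) and for miR-204-5p -1.04 (SE 0.36; edgeR adjusted p = 0.592). Without wild type replicate 2 of the hippocampus, its lowest library there, miR-204-5p was called (-1.40, edgeR adjusted p = 0.00630). Without wild type replicate 1 or 3 of the hippocampus it was not called.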

How the data were processed

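The authors deposited raw counts of reads per mature miRNA, 1 table for each of the 23 libraries, with the same 1915 names. Reads were mapped to mm9, per the submitters' processing notes. Total RNA was extracted with TRIZOL, and a TruSeq small RNA kit gave the libraries, per the labels' protocols. For the aligner, the miRNA annotation and the handling of multiply matching reads no source used here gives a name or setting, and 13 sets of tested miRNAs have equal counts in every library.

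The tests were run in edgeR 4.0.16 under R 4.3.3: filterByExpr with the 8 groups (minimum count 10, minimum total 15; 669 miRNAs kept of 1459 with a count), TMM factors, 1 quasi-likelihood model with a mean per group over all libraries, two-sided F tests and Benjamini-Hochberg adjustment over all tested miRNAs. Log2 CPM used a prior count of 0.5, and arm ratios had 0.5 added to each count. The edgeR step was tested on simulated data. DESeq2 1.42.0, limma-voom (limma 3.58.1), other scalings, filters and left-out libraries were tried as alternatives. No pair of hippocampus libraries of a group was a duplicate (chi-square per degree of freedom of 125 to 242). Over all miRNAs pooled, counting error alone is smaller than the spread between libraries, which need not hold for a miRNA with few reads. No molecular identifiers are named for the reads.

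The region, the lists and the rule for named miRNAs were chosen with earlier results of these data known. Named are all tested members of the miR-7 and miR-671 list and of the choroid plexus list, the 10 higher and 10 lower with the smallest p, the 10 most abundant, the 10 with the largest wild type SD, 2 by level and 2 by p from each other list, and the 5 with the smallest p between regions.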

Additional observations from a re-analysis of the deposited data

How the results depend on the processing

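The count of called miRNAs in the hippocampus was 0 with TMM and also under the other 3 scalings, with the 5 hippocampus libraries alone, and without knockout replicate 3 or wild type replicate 1 or 3. It was 2 with a filter at a mean of 10 CPM, 2 with limma-voom, 3 with DESeq2 and 20 with no filter, all lower, and 0 to 8 with 1 library left out. In the fit with no filter the prior degrees of freedom were 1088, against 4.98 with the filter, so each miRNA's own spread hardly counted there, and its 20 calls include 11 choroid plexus miRNAs. The count for the difference between regions was 0, with 15 under no filter (6 higher and 9 lower) and 0 to 1 with 1 library left out. With a replicate block in each region, 2 miRNAs were called, miR-7a-5p (-1.39) and miR-7b-5p (-1.39; edgeR adjusted p = 0.00432 each), and 0 between regions. The labels do not say what the numbers mark. Deviations of same-numbered libraries correlated at 0.075 (number 2) and -0.25 (number 3) over 392 miRNAs, and those of different numbers at -0.37 to 0.37. With 2 knockout libraries the deviations mirror each other, so these values cannot show whether the numbers mark pairs. The median wild type SD of the choroid plexus list was 0.97 and ran from 0.25 to 1.29 with 1 library left out. The arm ratio difference ran from -1.62 to -1.05 for miR-7a, from -1.26 to -0.92 for miR-7b and from -0.52 to 0.074 for miR-671 with 1 library left out.

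Of the 80 named miRNAs, 55 kept their direction under all alternatives. None of the others was called in the fit over all libraries, and the cause of their turns was not tested. With library size only the log2 fold change turned to -0.058 for miR-671-5p, -0.0019 for miR-26a-5p, -0.057 for miR-22-3p, -0.023 for miR-219a-2-3p. With the stricter filter the log2 fold change turned to -0.032 for miR-671-5p, -0.016 for miR-22-3p. With the replicate block the log2 fold change turned to 0.091 for miR-138-5p, -0.086 for miR-144-3p, 0.024 for miR-126a-5p, -0.023 for miR-143-5p. With upper quartile scaling the log2 fold change turned to 0.0084 for miR-199a-3p, 0.0084 for miR-199b-3p, 0.015 for miR-429-3p. With 1 library left out it ran from -0.35 to 0.035 for miR-7a-2-3p, -0.12 to 0.14 for miR-671-5p, -0.0016 to 0.17 for miR-181a-5p, -0.13 to 0.26 for miR-26a-5p, -0.22 to 0.24 for miR-22-3p, -0.12 to 0.090 for miR-138-5p, -0.067 to 0.42 for miR-143-3p, -0.20 to 0.61 for miR-409-5p, -0.13 to 0.68 for miR-144-3p. It further ran from -0.0073 to 0.22 for miR-132-3p, -0.54 to 0.92 for miR-138-1-3p, -0.32 to 0.057 for miR-338-3p, -0.31 to 0.37 for miR-219a-2-3p, -0.046 to 0.36 for miR-219a-5p, -0.14 to 0.33 for miR-146b-5p, -0.36 to 0.082 for miR-486a-5p, -0.36 to 0.082 for miR-486b-5p, -0.64 to 0.16 for miR-451a. Last, it ran from -0.12 to 0.024 for miR-126a-5p, -0.18 to 0.63 for miR-143-5p, -0.12 to 0.16 for miR-199a-3p, -0.12 to 0.16 for miR-199b-3p, -0.45 to 0.29 for miR-429-3p, -0.048 to 0.40 for miR-92a-3p, -0.050 to 0.62 for miR-200a-5p.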
